A study of Mus musculus with 2 samples.

Results

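Klf2, Klf3, Klf4, Klf6, Klf10, Klf13, S1pr1, S1pr4, Foxo1 and Txnip were examined in lung group 2 innate lymphoid cells (ILC2s), innate counterparts of Th2 cells that live in tissue and secrete IL-5 and IL-13. These 10 of the 32285 genes in the count matrices form a named set of 6 Kruppel-like factors, 2 receptors for sphingosine 1-phosphate (S1P), a forkhead factor and a gene of the thioredoxin system. All 10 were detected in both libraries, and each was read in barcodes that passed a filter of 500 or more genes seen and no more than 10% of UMIs from mitochondrial genes. A UMI is the molecular tag that lets each captured transcript be counted once. The study compared WT mice with Pac1-KO (Pac1-/-) mice, which lack the dual-specificity phosphatase PAC1, encoded by Dusp2, in every cell. Both groups were on a C57BL/6J background and aged 6 to 8 weeks, and no label gives a treatment for these cells. ILC2s from 4 to 5 mice of a genotype were sorted as live lineage-negative CD90.2+ ST2+ Sca-1+ cells, pooled, and 13000 cells were loaded for a single droplet library. With 1 library per genotype no difference could be tested, cells are not replicates, and each 95% interval below covers counting error only.

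Kruppel-like factors (KLFs) are zinc finger proteins that bind CACCC and GC-rich DNA. In T cells KLF2 maintains quiescence and drives S1pr1, whose product lets lymphocytes leave tissue along the S1P gradient, and FOXO1 acts upstream of KLF2 until AKT signalling removes it from the nucleus. TXNIP binds thioredoxin and limits glucose uptake.

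The promoters of the members that stood out in the comparison of genotypes were read first. RefSeq promoters (GRCm38.p6) were at hand for 8 of the 10 members, Klf10 and S1pr1 being the other two. Klf2 and Txnip are shown because they were the members higher in Pac1-/- cells. The 250 bases before each start are given 5′ to 3′ on the gene's strand, at chr8:72318812-72319061 (+) for Klf2 and chr3:96557707-96557956 (+) for Txnip. Capitals mark CACCC on either strand, read as GGGTG on the opposite one, and in Txnip also the forkhead motif GTAAACA.
Klf2: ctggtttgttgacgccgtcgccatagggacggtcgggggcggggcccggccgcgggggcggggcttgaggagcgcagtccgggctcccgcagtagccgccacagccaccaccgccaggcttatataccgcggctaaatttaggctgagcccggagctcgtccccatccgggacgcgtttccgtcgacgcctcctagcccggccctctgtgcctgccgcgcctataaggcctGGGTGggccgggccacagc
Txnip: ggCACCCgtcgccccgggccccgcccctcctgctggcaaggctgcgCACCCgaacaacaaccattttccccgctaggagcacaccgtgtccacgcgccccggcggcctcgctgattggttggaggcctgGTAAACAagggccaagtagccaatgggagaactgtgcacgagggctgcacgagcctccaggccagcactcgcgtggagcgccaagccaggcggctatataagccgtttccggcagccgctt
CACCC lay 19 bases before the RefSeq start in Klf2 and at 248 and 204 bases in Txnip, counted to the first base of the match. The gene coordinates given below are those of GENCODE, which starts Klf2 further upstream, so that the Klf2 match lies inside the gene as GENCODE draws it. CACCC was found in 5 of the 8 promoters, also in Klf3, Klf13 and S1pr4, against 52.0% of 32851 promoters of this length. The forkhead motif was found in Txnip alone, 121 bases before the start, and in 3.17% of all promoters. The heat shock element, searched as GAANNTTC or TTCNNGAA, was in none of the 8 and in 12.8% of all. The cAMP response element TGACGTCA was likewise in none of the 8 (1.55% of all), and the E-box CACGTG was in Klf4 and Klf6 (6.02% of all). All motifs were searched on both strands and may overlap. A match is a description of letters and no match says only that these letters are not in this window.

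The WT library held 8394 barcodes past the filter with 54579034 UMIs, and the Pac1-/- library 7087 with 58338886. Median depth was 4186.5 UMIs in WT and 5577 in Pac1-/-, and median mitochondrial shares were 2.50% and 3.27%. All 10 ILC2 markers were detected in both libraries, and 97.6% of barcodes in each held a UMI of Il1rl1, which encodes ST2, or Gata3. Dusp2, the targeted gene, gave 1419 UMIs in WT and 5 in Pac1-/-, so the libraries followed their labels. At least 2 markers of a B, endothelial, epithelial, stromal, myeloid or NK cell were found in 125 WT and 262 Pac1-/- barcodes, which held 3.24% and 7.40% of UMIs. Their defining markers were low: the summed level of the 7 endothelial markers was 43.4 and 40.1 CPM (UMIs per 1000000 UMIs), that of the 7 epithelial markers 54.3 and 82.3, and that of the 6 B cell markers 7.55 and 14.9. Of the 8 myeloid markers, 4 were at 0 in WT and C1qb in Pac1-/-. Of the 7 T cell markers, 6 were detected, with a summed level of 142 CPM in WT and 105 in Pac1-/-; Cd3g was found in 33.5% and 26.7% of cells, and Cd8a was at 0 in both. The summed level of the 4 globin genes differed most, at 76.1 in WT and 269 in Pac1-/-. The libraries shared 29 barcodes, of which 15 passed the filter.

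Of the 10 genes, Klf2 and Txnip were higher in Pac1-/- cells and Klf10 and S1pr1 were lower, each by at least 1.5-fold relative to the median gene, and 6 lay within that range. Klf2 had the largest positive difference of the set, 2.41-fold (95% interval 2.33 to 2.48), and Klf10 the largest negative one, 3.06-fold. Among all 12427 genes with at least 50 UMIs, 8.22% were higher and 12.8% lower by this measure, 21.0% in all, against 4 of 10 in this set, which was chosen with results of these data known. The median distance from no difference was 0.40 on the log2 scale for the members and 0.29 for all genes. Levels are CPM, and each log2 ratio is that of Pac1-/- over WT CPM after subtraction of the median over all genes, 0.19. Without that subtraction the same 4 genes were past 1.5-fold.

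**Figure D1:**
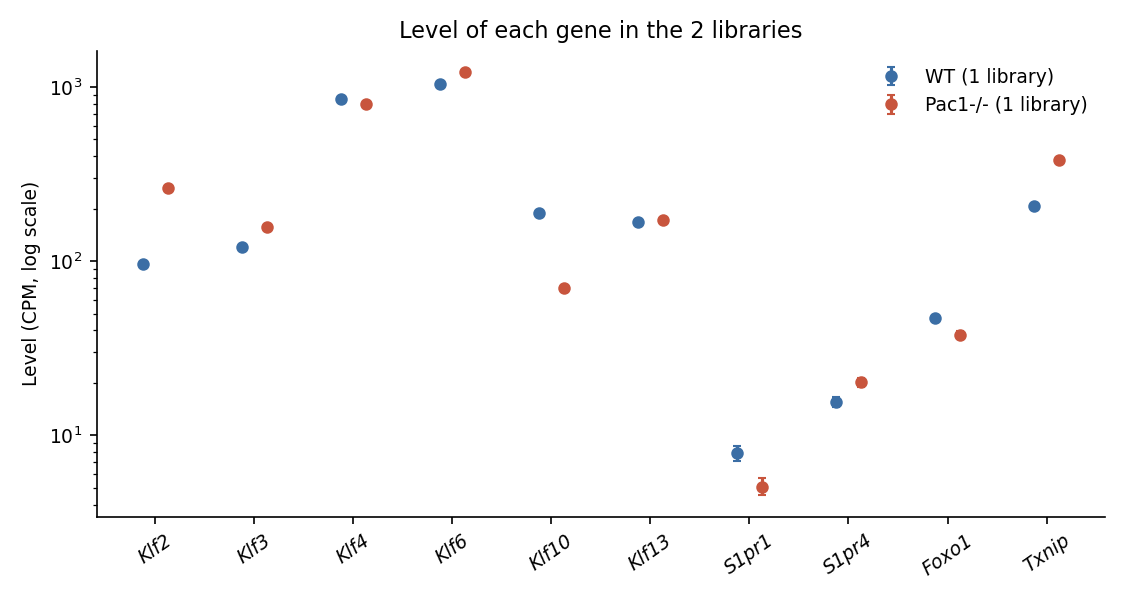
Level of each of the 10 genes in CPM on a log axis, WT in blue and Pac1-/- in red, 1 library each, with exact 95% Poisson intervals mostly smaller than the points. Klf2 was at 96.5 in WT and 264 in Pac1-/-, Klf10 at 189 and 70.5, and Klf13 at 168 and 171.

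**Figure D2:**
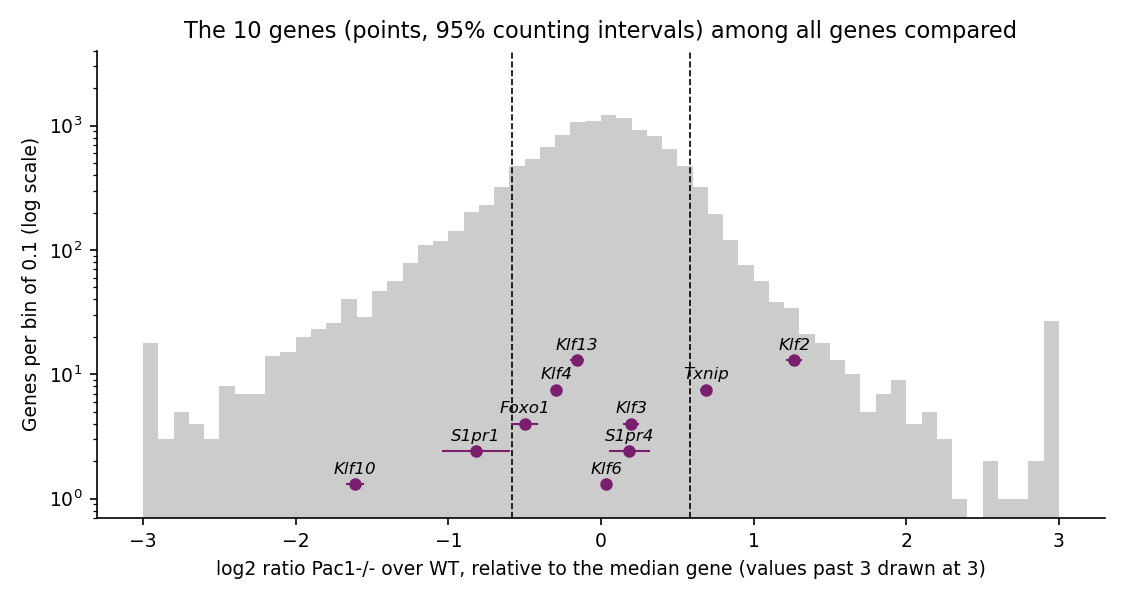
Histogram of the log2 ratio of Pac1-/- over WT for all 12427 genes, relative to the median gene, with gene numbers on a log axis and dashed lines at 1.5-fold. The points are the 10 members with 95% counting intervals, placed at arbitrary heights; Klf2 (1.27) and Klf10 (-1.61) lie in opposite tails.

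Klf2 (ENSMUSG00000055148, chr8:72319033-72321656, + strand) was counted as 5267 UMIs in WT and 15428 in Pac1-/-, or 96.5 CPM (93.9 to 99.1) and 264 CPM (260 to 269). The log2 ratio was 1.27 (1.22 to 1.31). Both the number of cells with Klf2 and the transcripts per such cell were higher in the knockout. With 1500 UMIs drawn at random from every cell, Klf2 was found in 9.48% of cells in WT (8.84 to 10.2) and in 20.3% in Pac1-/- (19.3 to 21.3), and the mean count in those cells was 1.55 and 1.90. Cells with fewer UMIs, 760 in WT and 523 in Pac1-/-, were not drawn, and with all UMIs the shares were 22.7% and 42.7%. Cells were also ranked by depth and cut into 5 classes of equal number. Klf2 lay between 83.5 and 113 CPM in the WT classes and between 189 and 307 in the Pac1-/- classes. Such classes are parts of 1 library and not replicates, and their ranges were not compared over all genes. The ratio was 1.13 to 1.34 in cells with and without Il5, Il2 or heat shock transcripts.

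Klf10 (ENSMUSG00000037465, chr15:38291463-38300706, - strand), an early gene of TGF-β signalling, differed in the opposite direction. It gave 10329 UMIs in WT and 4113 in Pac1-/-, or 189 CPM (186 to 193) and 70.5 CPM (68.4 to 72.7), for a log2 ratio of -1.61 (-1.66 to -1.56). The share of thinned cells with Klf10 was 20.3% (19.4 to 21.2) in WT and 8.06% (7.41 to 8.74) in Pac1-/-, against 43.2% and 29.7% unthinned. The 5 depth classes spanned 172 to 200 CPM in WT and 52.4 to 77.6 CPM in Pac1-/-. Across cells with and without each of the 3 statuses the ratio lay between -1.84 and -1.46.

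The other 4 KLFs differed less. Klf6 (ENSMUSG00000000078, chr13:5861482-5870394, + strand), which responds early to stress and injury, was at 1038 CPM in WT and 1211 in Pac1-/-, a log2 ratio of 0.04 (0.02 to 0.05). At equal depth 60.8% of cells in WT and 63.6% in Pac1-/- held it. Klf4 (ENSMUSG00000003032, chr4:55527143-55532466, - strand), a factor known for growth arrest and for reprogramming to pluripotency, was at 854 and 794 CPM and had a ratio of -0.29 (-0.31 to -0.27). Klf3 (ENSMUSG00000029178, chr5:64803388-64832901, + strand), a repressor that binds the same boxes as KLF2, was at 121 and 158 CPM, a ratio of 0.20 (0.15 to 0.24). Klf13 (ENSMUSG00000052040, chr7:63886351-63938915, - strand), known in T cells for the late induction of Ccl5, was at 168 and 171 CPM. Its ratio was -0.16 (-0.20 to -0.12) and became 0.03 without the median subtraction, so no direction is given for it. Klf3 shares its strand with C230096K16Rik and Foxo1 with Gm38034, and UMIs of such overlapping pairs may be assigned to either or lost.

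S1pr1 (ENSMUSG00000045092, chr3:115710433-115715072, - strand), the receptor for exit from tissue, was sparse and lower in the knockout. It gave 429 UMIs in WT and 296 in Pac1-/-, or 7.86 CPM (7.13 to 8.64) and 5.07 CPM (4.51 to 5.69), for a log2 ratio of -0.82 (-1.04 to -0.60). At 1500 UMIs per cell, 73 WT cells (0.956%; 0.750 to 1.20) and 44 Pac1-/- cells (0.670%; 0.488 to 0.899) held an S1pr1 UMI, and the intervals of these shares overlapped. Unthinned shares were 3.82% and 2.72%, and the depth classes overlapped (4.09 to 9.70 CPM in WT, 3.35 to 7.94 in Pac1-/-). The barcodes with markers of another cell type held 6.53% of WT and 18.9% of Pac1-/- S1pr1 UMIs, and without them the ratio was -0.96. In thinned barcodes with B cell markers, S1pr1 was found in 5 of 25 in Pac1-/- and 0 of 10 in WT, which allows a share of up to 30.0% (3 counts of the total). Those with endothelial markers gave 1 of 33 in Pac1-/- and 0 of 32 in WT, which allows up to 9.375%. Barcodes with epithelial markers gave 2 of 68 in WT and 0 of 170 in Pac1-/-, which allows up to 1.76% by the same rule, but 98.5% and 99.4% of them also held Il1rl1 or Gata3, so no background share free of ILC2 transcripts was at hand.

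S1pr4 (ENSMUSG00000044199, chr10:81497747-81500132, - strand), the S1P receptor confined largely to hematopoietic cells, was higher by a margin under 1.5-fold. It was counted as 847 UMIs in WT and 1172 in Pac1-/-, or 15.5 CPM (14.5 to 16.6) and 20.1 CPM (19.0 to 21.3), a ratio of 0.18 (0.06 to 0.31). Thinned shares were 2.14% (1.82 to 2.48) and 2.99% (2.59 to 3.43). The 2 receptors thus had ratios of opposite sign, with intervals that did not overlap.

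Foxo1 (ENSMUSG00000044167, chr3:52268336-52353221, + strand) was at 47.1 CPM in WT (45.3 to 48.9) and 37.9 CPM in Pac1-/- (36.3 to 39.5), from 2569 and 2210 UMIs. The log2 ratio was -0.50 (-0.58 to -0.42), short of 1.5-fold. Txnip (ENSMUSG00000038393, chr3:96557957-96561883, + strand) was at 206 CPM in WT (202 to 210) and 378 CPM in Pac1-/- (373 to 383), from 11237 and 22077 UMIs, a ratio of 0.69 (0.66 to 0.72). At equal depth its share was 22.5% in WT (21.5 to 23.4) and 35.5% in Pac1-/- (34.4 to 36.7), against 47.1% and 65.6% unthinned. The depth classes ran from 189 to 240 CPM in WT and from 356 to 437 CPM in Pac1-/-. Gm15441 lies on the strand opposite Txnip.

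Leaving out the barcodes with at least 5 UMIs of the heat shock genes Hspa1a and Hspa1b brought Txnip to 0.53 and S1pr1 to -0.55, inside 1.5-fold, so 1 member was then higher (Klf2) and 1 lower (Klf10). Globin RNA and markers of other cell types also differed between the libraries, and their part in these ratios was not tested.

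The other genes of these pathways were read from lists of relatives. Of 11 other KLFs, 6 had enough UMIs, and 1 of these was lower and none higher by 1.5-fold. Over all genes 8.22% were higher and 12.8% lower, and with at most 2 genes called in any of the lists below nothing is read from their counts. Klf12 was lowest, with a ratio of -1.08 from 66 and 38 UMIs, followed by Klf11 at -0.54 and Klf9 at -0.35, and the list's median was -0.31 against 0 for all genes. Of 9 genes measured among 15 S1P receptors and enzymes, 2 were lower: Sphk1, a kinase that makes S1P, at -1.13 from 92 and 51 UMIs, and Sgpl1, the lyase that degrades it, at -0.74 (-0.85 to -0.63). Cers2, a ceramide synthase, was at 0.45 and the list's median at -0.07. Among 10 homing and residency genes tied to KLF2 or FOXO1, Pik3ip1, an inhibitor of PI3K, was higher at 0.70 (0.59 to 0.81), Il6ra was at 0.48 and Cxcr4 at 0.38. Ccr7, the receptor for entry into lymphatics, was at -0.11 (-0.36 to 0.14), and Cd69, whose product retains lymphocytes by removing S1PR1 from the surface, was at -0.01 (-0.03 to 0.00). The median of these 10 was 0.21. Of 13 genes upstream of Klf2 and Foxo1, Mef2c was higher at 1.04, from 51 UMIs in WT and 128 in Pac1-/-. Its ratio was not computed without barcodes of other cell types, which numbered 125 in WT and 262 in Pac1-/-. Mapk7, which encodes ERK5, was at 0.37 and Mef2a at -0.35, and the median of the 13 was -0.02. Of 12 thioredoxin and arrestin genes, Slc2a1, the glucose transporter that TXNIP restrains, was lower at -0.99 (-1.11 to -0.86), Arrdc4, a relative of Txnip, was at 0.32 and Txnrd1 at -0.31, and the median was 0.05.

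Within a library, the largest difference of any member by Il5, Il2 or heat shock status was that of Klf2 by heat shock transcripts. Cells with at least 5 UMIs of Hspa1a and Hspa1b, which encode stress-inducible HSP70, had 2.07-fold the relative Klf2 level of the other cells in WT and 2.08-fold in Pac1-/-. They numbered 2858 in WT (34.0%) and 3317 in Pac1-/- (46.8%). Klf2 was at 60.5 CPM in WT cells below that count and at 130 CPM in WT cells at or above it, and at 150 and 328 CPM in the same classes of Pac1-/- cells. The log2 ratio of cells with over cells without the status was 1.05 in WT (0.97 to 1.14) and 1.05 in Pac1-/- (0.997 to 1.11). Klf2 was the only member past 1.5-fold in WT, where 1.51% of all genes were higher and 1.58% lower. In Pac1-/- cells Klf2 and Klf10 were higher, against 1.66% of genes higher and 2.30% lower. Over 9 alternatives the Pac1-/- log2 ratio of Klf10 ranged from 0.49 to 0.73, so Klf10 was not past 1.5-fold in all of them. Cells with the status were deeper, with medians of 6804.5 against 3744.5 UMIs in WT and 7345 against 4770 in Pac1-/-. Within bins of depth the Klf2 ratio was 1.33 in WT and 1.19 in Pac1-/-, and in thinned cells, where the status was set from the drawn UMIs, it was 1.80 and 1.66.

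**Figure D3:**
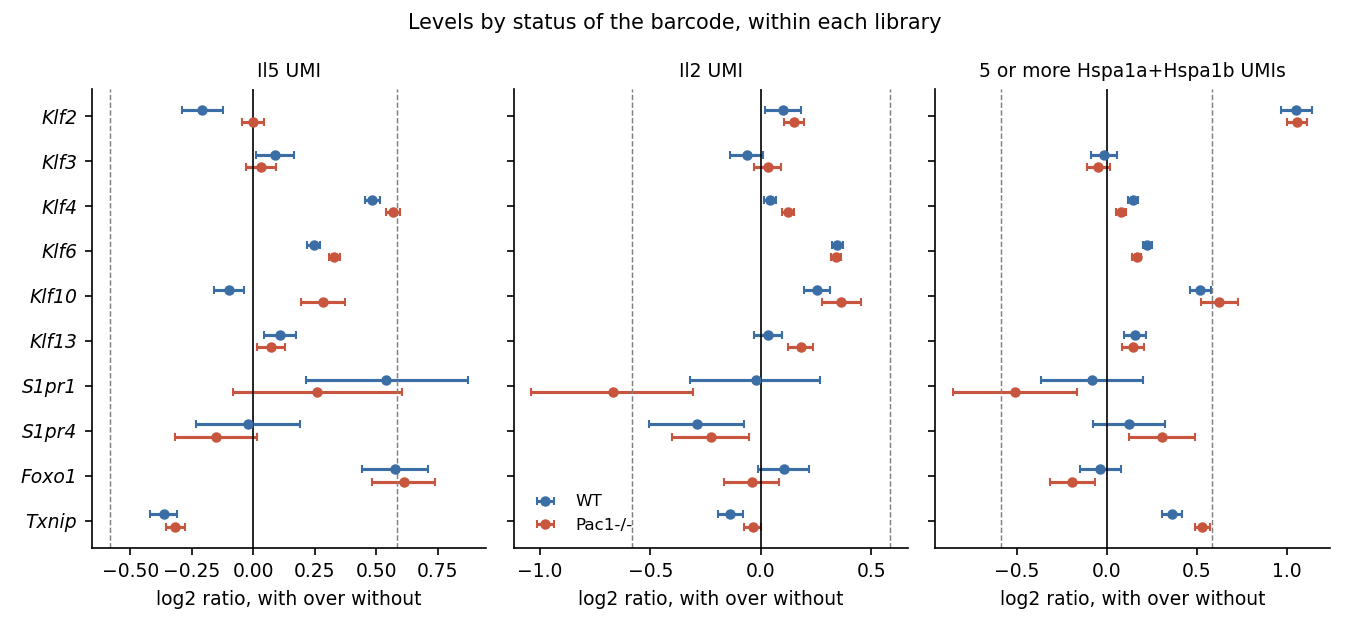
Log2 ratio of the level in cells with a status over cells without it, relative to the median gene, for each member, with 95% counting intervals; the panels are an Il5 UMI, an Il2 UMI and at least 5 Hspa1a and Hspa1b UMIs, WT in blue and Pac1-/- in red, dashed lines at 1.5-fold. Klf2 stands at 1.05 in both libraries for heat shock, and Foxo1 and Klf4 lie right of 0 for Il5.

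Klf10 and Txnip were also higher in heat shock cells of both libraries. Klf10 had a ratio of 0.52 (0.46 to 0.58) in WT and 0.62 (0.52 to 0.73) in Pac1-/-. For Txnip the values were 0.36 (0.31 to 0.41) and 0.53 (0.49 to 0.57). Klf6 was at 0.22 and 0.16, Klf13 at 0.16 and 0.14, and Klf4 at 0.14 and 0.08, while Klf3 stayed near 0 (-0.01 and -0.05). S1pr4 was at 0.12 (-0.08 to 0.32) in WT and 0.30 (0.12 to 0.49) in Pac1-/-. Over 9 alternatives the Pac1-/- value of S1pr4 ranged from 0.30 to 0.75, and that of Klf4 from -0.05 to 0.30. S1pr1 differed from Klf2 here, and its ratio was -0.08 (-0.36 to 0.20) in WT and -0.51 (-0.85 to -0.17) in Pac1-/-. In thinned cells it became -1.18 in WT and 0.22 in Pac1-/-, so no direction is given for S1pr1 in Pac1-/-.

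Klf2 was highest in the cells with most heat shock transcripts. At 1500 UMIs per cell, WT cells with 0, 1, 2 to 3, 4 to 7 and 8 or more Hspa1a and Hspa1b UMIs had Klf2 levels of 60.2, 73.5, 89.5, 123 and 327 CPM. The Pac1-/- cells in the same classes had 146, 152, 181, 305 and 631 CPM. Klf2 was higher in Pac1-/- cells in each of the 5 classes, with log2 ratios from 0.84 to 1.19. Counts are equal only within the classes of 0 and 1, and the part of heat shock in the genotype ratio was not tested. The classes were not equally filled: 56.0% of WT and 44.3% of Pac1-/- cells had none, and 9.86% and 17.4% had 8 or more. Klf10 went from 150 to 281 CPM over the classes in WT and from 43.3 to 93.5 in Pac1-/-, and its genotype ratio lay between -1.95 and -1.67. Txnip went from 173 to 347 CPM in WT and from 273 to 568 in Pac1-/-, with ratios from 0.50 to 0.88. Foxo1 ran the other way, from 43.9 CPM in cells with none to 28.3 CPM in cells with 8 or more in WT and from 37.8 to 24.0 CPM in Pac1-/-. By status in cells not thinned, Foxo1 was at 47.3 CPM in WT heat shock cells and 46.8 in the others (-0.04; -0.15 to 0.08), which became 0.01 without median subtraction, and at 36.8 and 39.9 CPM in Pac1-/- (-0.19; -0.32 to -0.07). These totals include the heat shock transcripts themselves.

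**Figure D4:**
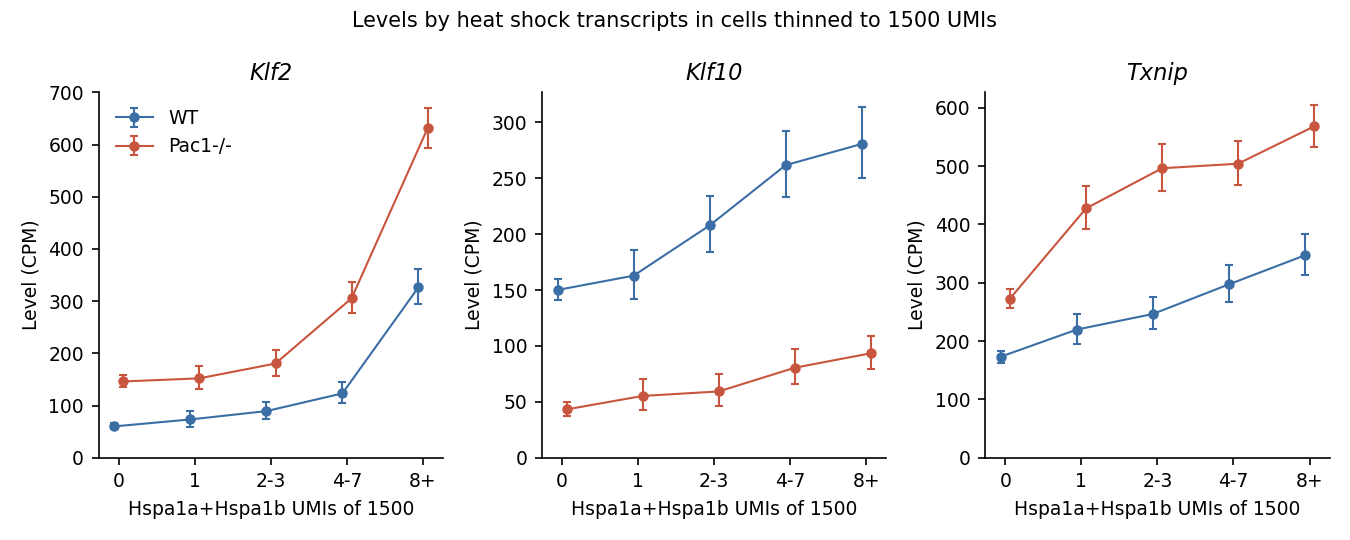
Level of Klf2, Klf10 and Txnip in CPM, with 95% Poisson intervals, in cells thinned to 1500 UMIs and grouped by their Hspa1a and Hspa1b UMIs, WT in blue and Pac1-/- in red. Klf2 is highest in the last class (327 in WT, 631 in Pac1-/-), and the order of the genotypes is the same in all 5 classes for each gene.

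Cells that carried Il5, the cytokine that recruits eosinophils, had more Foxo1 and Klf4 and less Txnip. An Il5 UMI was found in 4460 WT cells (53.1%) and 2800 Pac1-/- cells (39.5%), whose median depth was 5690.5 against 3583 UMIs in WT and 8063 against 4946 in Pac1-/-. Foxo1 was at 50.8 CPM in WT cells with Il5 and 37.9 without, a ratio of 0.58 (0.44 to 0.71), and at 43.0 and 31.0 in Pac1-/-, a ratio of 0.61 (0.48 to 0.74). Klf4 was at 908 and 721 CPM in WT, a ratio of 0.48 (0.45 to 0.51), and at 891 and 663 in Pac1-/-, a ratio of 0.57 (0.54 to 0.59). Txnip was at 183 CPM in WT cells with Il5 and 262 without (-0.37; -0.42 to -0.31), and at 327 and 448 in Pac1-/- (-0.32; -0.36 to -0.28). Foxo1 in Pac1-/- was the one member past 1.5-fold, where 4.32% of genes were higher and 2.07% lower, and none was in WT, where the shares were 4.87% and 2.76%. Foxo1, Klf4 and Txnip kept their directions under all 9 alternatives in both libraries. Within bins of depth Foxo1 was at 0.35 in WT and 0.53 in Pac1-/-. In Pac1-/- Foxo1 was inside 1.5-fold there, in thinned cells (0.37) and without median subtraction (0.47), and Klf4 was past it within bins of depth (0.60) and in thinned cells (0.89).

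S1pr1 was also higher in WT cells with Il5, at 8.43 against 6.45 CPM (0.54; 0.21 to 0.87), and was at 5.25 against 4.84 CPM in Pac1-/- (0.26; -0.08 to 0.61), an interval that includes 0. In thinned cells the ratios were 1.04 and 1.20, and the Pac1-/- value was 0.63 without barcodes of other cell types and 0.12 without median subtraction. Seen from the other side, Il5 was at 630 CPM in Pac1-/- cells with S1pr1 and 393 without, a ratio of 0.70 (0.63 to 0.77). In WT these levels were 859 and 706 CPM, a ratio of 0.31 (0.26 to 0.36). Klf2 did not follow S1pr1 by Il5 status. Klf2 had a ratio of -0.21 (-0.29 to -0.12) in WT and 0.00 (-0.05 to 0.04) in Pac1-/-, and without heat shock barcodes these became 0.36 and 0.32. Heat shock transcripts themselves were lower by level in cells with Il5, with Hspa1a at -0.42 in WT and -0.33 in Pac1-/- and Hspa1b at -0.73 and -0.44. By the fixed count of 5 UMIs, in cells of unequal depth, heat shock cells were 35.9% of WT cells with Il5 and 32.0% of those without, and 50.1% and 44.7% in Pac1-/-. Klf6 was at 0.25 and 0.33, and Klf3, Klf13 and S1pr4 lay between -0.15 and 0.11 in the 2 libraries. Within bins of depth Klf6 was at 0.03 in WT and 0.20 in Pac1-/-, and in thinned cells at 0.05 and 0.29.

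Cells with an Il2 UMI differed little in most of these genes before thinning. They numbered 1671 in WT (19.9%) and 1809 in Pac1-/- (25.5%), with median depths of 7898 against 3948 UMIs and 9714 against 5125.5. Klf6 was higher in both libraries, at 0.35 (0.32 to 0.37) in WT and 0.34 (0.32 to 0.36) in Pac1-/-, as was Klf10, at 0.25 (0.20 to 0.31) and 0.37 (0.28 to 0.45). Within bins of depth Klf6 was at 0.24 and 0.20, and Klf10 at 0.21 in both. In Pac1-/- Klf10 was at 0.11 in thinned cells and 0.18 without heat shock barcodes, against 0.31 and 0.22 in WT. S1pr4 was lower in both, at -0.29 (-0.51 to -0.08) and -0.23 (-0.40 to -0.06). Klf2 was at 0.10 (0.02 to 0.18) in WT and 0.15 (0.10 to 0.19) in Pac1-/-, but at 0.49 and 0.52 in thinned cells. Without heat shock barcodes it was at -0.28 in WT and 0.18 in Pac1-/-, so no direction is given for Klf2 in WT. S1pr1 in Pac1-/- cells was the one member past 1.5-fold, at 3.75 CPM with Il2 and 6.03 without (-0.67; -1.04 to -0.31), where 1.72% of genes were lower and 0.740% higher. With the status set from 2 Il2 UMIs that ratio was -0.08. In WT it was -0.02 (-0.32 to 0.27) and no member was past the fold, against 1.58% of genes lower and 0.829% higher.

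Klf2 and S1pr1 were next compared in the same cells, because KLF2 drives S1pr1 in T cells. By summed level there was little relation. Klf2 was at 97.9 CPM in the 321 WT cells with S1pr1 and 96.4 CPM in the other 8073, a log2 ratio of 0.05 (-0.10 to 0.20). In Pac1-/- it was at 295 CPM in 193 cells and 263 CPM in 6894, a ratio of 0.18 (0.08 to 0.28), or 0.09 (-0.03 to 0.20) without barcodes of other cell types. Shares of cells were compared at equal depth. At 1500 UMIs, 9 of 73 WT cells with S1pr1 held Klf2 (12.3%) against 9.46% of the others, a difference of 2.87 points (-2.87 to 12.4). In Pac1-/- 17 of 44 did (38.6%) against 20.2%, a difference of 18.5 points (5.50 to 33.2). The intervals of the 2 libraries overlapped. The Pac1-/- value depended on which UMIs were drawn: over 20 repeated thinnings it ranged from -1.34 to 24.0 points with a median of 12.3 and 19 of the 20 above 0, and it was 0.546 points at 1000 UMIs per cell and 15.1 at 2000, against 3.19 and -4.26 in WT. In WT the repeats ranged from -7.19 to 5.46 points, with 15 above 0, and without heat shock barcodes the difference was -2.52 points. Without thinning the differences were 18.8 and 24.2 points, but cells with S1pr1 had median depths of 8810 UMIs in WT and 10050 in Pac1-/-, against 4128 and 5533 without.

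**Figure D5:**
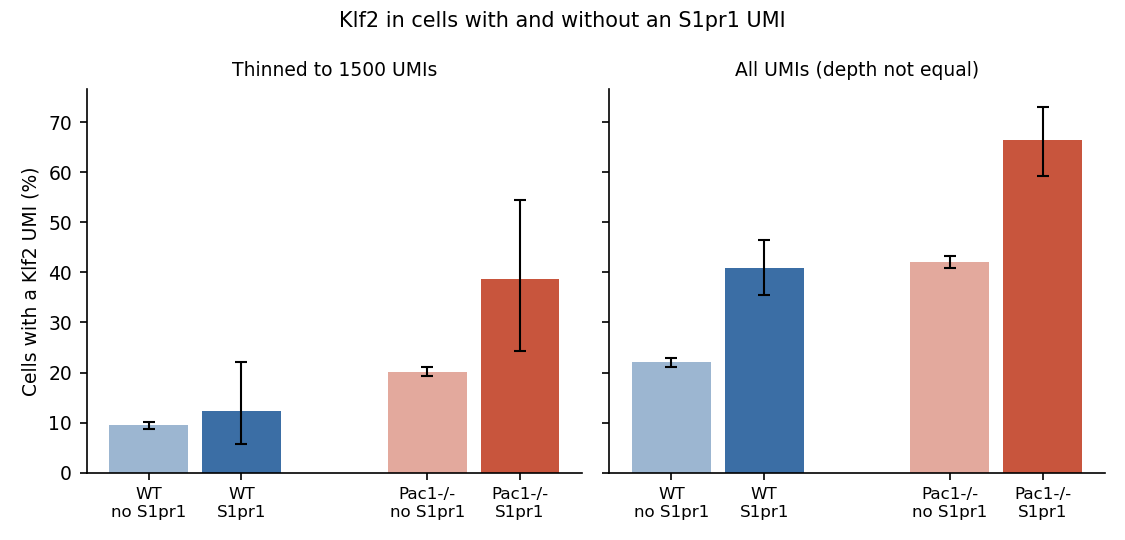
Percentage of cells with a Klf2 UMI among cells without (pale) and with (full colour) an S1pr1 UMI, with exact 95% intervals, for cells thinned to 1500 UMIs on the left and for all UMIs on the right. The thinned bars with S1pr1 rest on 73 WT and 44 Pac1-/- cells, and the wide interval of the Pac1-/- bar (24.4% to 54.5%) reaches close to the 20.2% of cells without S1pr1.

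Read the other way, S1pr1 was found in 0.926%, 1.33% and 1.01% of WT cells with 0, 1 and 2 or more Klf2 UMIs, with overlapping intervals. In Pac1-/- cells the shares were 0.516% (0.340 to 0.750), 1.09% (0.501 to 2.07) and 1.57% (0.680 to 3.07), the last from 8 cells. The Pearson correlation of thinned log counts over cells was 0.01 in WT (7634 cells) and 0.04 in Pac1-/- (6564 cells), which is no finding in counts this sparse.

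The other members were compared in the same cells, first by summed level, where cells with S1pr1 were deeper. In Pac1-/- cells with S1pr1, S1pr4 was at 32.5 CPM against 19.4 (0.76; 0.44 to 1.06) and Foxo1 at 59.9 against 36.7 (0.72; 0.49 to 0.95). These 2 genes were the members past 1.5-fold among the 9 compared, where 3.43% of genes were higher and 4.24% lower, and without barcodes of other cell types their ratios were 0.86 and 0.68. In WT no member was past it, with S1pr4 at 0.29 (-0.07 to 0.63) and Foxo1 at 0.07 (-0.15 to 0.27), against 1.43% higher and 3.12% lower. Txnip was lower in cells with S1pr1 in both libraries, at -0.14 (-0.25 to -0.03) and -0.24 (-0.34 to -0.15). At 1500 UMIs per cell, S1pr4 was held by 2 and Foxo1 by 4 of the 44 Pac1-/- cells with S1pr1, differences of 1.57 points (-1.75 to 12.2) and 4.40 points (-1.13 to 16.5) that include 0. In WT the S1pr4 share was 1.37% with S1pr1 and 2.14% without. Txnip was held by 18.2% of the Pac1-/- cells with S1pr1 and 35.7% of the others, a difference of -17.5 points (-26.2 to -3.65), and by 13.7% and 22.5% in WT (-8.84 points; -15.0 to 0.92). Of the 8 homing genes compared, 1 was higher in WT, and 1 was higher and 1 lower in Pac1-/-. Ccr7 was higher in S1pr1 cells, at 1.70 (1.23 to 2.15) in WT from 52 UMIs and 2.55 (2.13 to 2.96) in Pac1-/- from 66 UMIs. Without barcodes of other cell types the Ccr7 values were 1.64 and 1.63, the latter from 23 UMIs and below the expected count of 10 that the comparison required. Il6ra was lower in Pac1-/-, at -0.99 (-2.13 to -0.05) from 9 UMIs in cells with S1pr1, and at -1.29 without barcodes of other cell types. Pecam1, also an endothelial marker, was at 0.54 and 0.69 in S1pr1 cells, while Cdh5, Cldn5, Kdr, Tek, Vwf and Egfl7 gave 0 to 12 UMIs each there. Few as they were, several of these endothelial genes were also higher in the Pac1-/- cells with S1pr1, with Kdr at 3.02 (1.36 to 4.49), Cldn5 at 2.88 (1.78 to 3.88), Cdh5 at 2.60 (1.24 to 3.79) and Egfl7 at 1.92 (0.62 to 3.04), and Kdr was at 1.93 (0.13 to 3.45) in WT. Without barcodes of other cell types, which were chosen by such markers, Cdh5 and Egfl7 gave 0 UMIs, Cldn5 1 and Kdr 3 in the Pac1-/- cells with S1pr1. Kdr was still at 3.03 (0.48 to 5.08) in Pac1-/- after this step. Pecam1 was then at 0.50 in WT and 0.74 in Pac1-/-. The part of endothelial RNA in these values was not tested.

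Cells with S1pr4 held Txnip more often than cells without it. In thinned WT cells 28.8% of 163 cells with S1pr4 held Txnip against 22.3% of the others, a difference of 6.52 points (0.05 to 14.0). In Pac1-/- the shares were 48.5% of 196 cells and 35.1%, a difference of 13.3 points (6.32 to 20.4). Klf2 shares by S1pr4 status had differences with intervals that include 0, of 0.34 points (-3.41 to 5.91) in WT and 0.10 points (-5.04 to 6.36) in Pac1-/-.

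The 4 genes most alike in pattern to Klf2 over cells were heat shock genes. Among 1606 genes found in at least 10% of thinned cells of both libraries, the 4 with the highest correlation, taken as the lower of the 2 libraries, were Hspa1b (0.18 in WT, 0.24 in Pac1-/-), Hspa1a (0.17 and 0.21), Hsp90aa1 (0.16 and 0.19) and Dnajb1 (0.14 and 0.20). For Txnip they were Hspa1b, Dnajb1, Hspa1a, Zfp36l2 and Ltb, with values from 0.08 to 0.16. For S1pr1 the 5 genes found by the same rule had correlations from 0.03 to 0.06. These values are descriptions over cells that share a library. Klf2 and Txnip, although both followed heat shock genes, were nearly unrelated to each other (0.02 and 0.00). Of the 45 pairs of members, Klf4 with Klf6 (0.08 and 0.16) and Klf2 with Klf6 (0.10 and 0.13) were among the highest in both libraries.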

How the data were processed

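Lung ILC2s of 1 WT and 1 Pac1-/- pool were profiled with a 10x Genomics 3′ kit. The authors deposited the raw counts, 1 UMI count for each gene in each barcode, made with Cell Ranger by alignment to mm10. The submitters' notes name version 6.1.1 and the file header 4.0.0, and no normalization had been applied. Barcodes entered when 500 or more genes were seen and no more than 10% of UMIs were mitochondrial, and no doublets were removed. UMIs were summed over barcodes and divided by their total (CPM). Ratios are relative to the median gene with at least 50 UMIs, and within a library also with an expected count of at least 10 in the smaller class. Intervals are exact Poisson (levels), conditional binomial (ratios) and Clopper-Pearson (shares), and Newcombe for differences of shares, and a share of 0 allows 3 counts of the total. For shares, 1500 UMIs were drawn at random from each cell (thinned cells). Cells of another type were those with 2 or more of its markers. The 10 genes were all named, together with the 3 relatives of each list that differed most by genotype and the 5 genes most alike to Klf2, S1pr1 and Txnip. Ccr7, Cd69 and the endothelial and T cell genes were named after their values were seen, and some genes that these rules name are not reported here. Members and lists were chosen with earlier results of these data known. Coordinates are GENCODE's for GRCm38 and the counting of overlapping genes was not given in the sources used here. The genotype ratios and the ratio intervals were tested on simulated counts, and thinning was checked to leave 1500 UMIs per barcode. The other steps were not tested in this way. Python 3.11.15, numpy 2.4.6, scipy 1.17.1 and pandas 2.3.3 were used.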

Additional observations from a re-analysis of the deposited data

Results flagged for a closer look

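Klf10 had opposite ratios by Il5 status in the 2 libraries: it was lower in WT cells with Il5, at -0.10 on the log2 scale (-0.16 to -0.04), and higher in Pac1-/- cells with Il5, at 0.28 (0.19 to 0.37). The difference between the libraries was not tested. Within bins of depth the Pac1-/- value was 0.05, and in thinned cells it was -0.08.

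The 2472 WT and 2408 Pac1-/- barcodes outside the filter, which no comparison above used, gave the same direction for Klf2 and Txnip. They come from the same libraries and pools of mice as the cells above, so they are not an independent check. Most of them, 2403 in WT and 2110 in Pac1-/-, had fewer genes seen than the filter requires. Klf2 had a log2 ratio of Pac1-/- over WT of 1.55 (1.24 to 1.88) there, from 105 and 406 UMIs. Txnip had a ratio of 0.62 (0.44 to 0.80), from 392 and 794 UMIs. Klf10 was at -1.41 (-1.72 to -1.12), Foxo1 at -0.50 (-1.07 to 0.06), Klf6 at 0.13 and Klf3 at 0.09. Klf4 was close to 0 there, at -0.01 (-0.13 to 0.11), and Klf13 was at 0.14 (-0.10 to 0.38). S1pr1 and S1pr4 had too few UMIs to be compared.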

How the results depend on the processing

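No paired analysis was possible because each genotype has 1 library and no result comes from a test. Over 11 alternatives the genotype ratio of Klf2 ranged from 1.15 to 1.45, that of Klf10 from -1.77 to -1.42, that of Txnip from 0.53 to 0.88 and that of S1pr1 from -0.96 to -0.55. Klf13 was the one member that changed sign, to 0.03 without median subtraction. The counts of members past 1.5-fold fell from 2 higher and 2 lower to 1 and 1 without heat shock barcodes. By Il5 status in WT the count higher went from 0 to 1 with at least 1000 detected genes, without the 10% of barcodes with most UMIs, or without other cell types, to 2 with the status from 2 UMIs or in thinned cells, and to 3 without heat shock barcodes. In Pac1-/- it went from 1 to 0 without median subtraction and to 2 without the deepest barcodes, without other cell types, without heat shock barcodes, with the status from 2 UMIs or in thinned cells. By Il2 status in Pac1-/- the 1 lower became 0 with the status from 2 UMIs. By heat shock status the WT count higher went from 1 to 2 without the deepest barcodes and to 3 in thinned cells, where 1 member instead of 0 was lower, and in Pac1-/- the count higher went from 2 to 3 without median subtraction, with the status from 3 UMIs or in thinned cells, and 1 instead of 0 was lower without the deepest barcodes. The difference in Klf2 share by S1pr1 status became -4.26 points in WT at 2000 UMIs, -2.52 without heat shock barcodes and 18.8 unthinned, and 0.546 points in Pac1-/- at 1000 UMIs. The cause was not tested in any of these. The Klf2 ratio by heat shock status ranged from 1.05 to 1.80 in WT and from 0.96 to 1.66 in Pac1-/-. Of 540 values by status, 48 changed sign. The repeated thinnings and the S1pr1 levels without other cell types were added after seeing the data. Depth limits S1pr1 and S1pr4 most, with a UMI in under 3% of thinned cells.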
